A study of Mus musculus with 35 samples.

Results

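The count files list 39 mouse Hox genes among 24421 genes in all, taken as every symbol that reads Hoxa, Hoxb, Hoxc or Hoxd followed by a number alone. They lie in 4 clusters on the mm10 genome (positions from GENCODE, GRCm38): 11 genes of HoxA at chr6:52155590-52260880 on the minus strand, 10 of HoxB at chr11:96194316-96368256 on the plus strand, 9 of HoxC at chr15:102921103-103036852 on the plus strand and 9 of HoxD at chr2:74668310-74765142 on the plus strand. Hox genes encode homeodomain transcription factors that tell cells of the embryo where they lie along the head-to-tail axis and along the limb. Their order on the chromosome matches their order along the body: low-numbered, anterior genes act nearest the head, and high-numbered, posterior genes act towards the tail and the limb tip. Fibroblasts keep in culture much of the Hox pattern of the place they came from, held by Polycomb and Trithorax-type chromatin complexes, so the expressed members serve as a label of positional identity.

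RNA from 35 cultures of immortalized mouse embryonic fibroblasts (MEFs) was sequenced as stranded mRNA libraries. All came from cells with 1 floxed and 1 null Nelfb allele (Nelfb flox/-) and grew in DMEM with 10% FBS. Nelfb encodes a subunit of the negative elongation factor NELF, which holds RNA polymerase II shortly after it starts a transcript, and the study asked which NELFB mutants can replace the normal protein. There were 15 stable clones, each grown from a single colony after Cre adenovirus (Ad-Cre) had removed the floxed allele, and 20 uncloned populations, collected 7 days after Ad-Cre or a GFP adenovirus (Ad-GFP).

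The clones fell into 5 groups of 3. WT, MT194 and MT486 clones carried flag-tagged NELFB in a pLenti vector, unmutated or with site-specific mutations that impair binding to other NELF subunits. WT(N48) and Δ-C60 clones carried their NELFB in a pBabe vector, with the C-terminal end deleted in Δ-C60, and the labels do not say what N48 stands for. The populations carried pLenti with no insert (EV), WT, MT194, MT486 or DMT, which joins the mutations of MT194 and MT486, and each was given Ad-Cre or Ad-GFP in 2 replicates. A clone descends from 1 cell, so a difference between clones of a group includes whatever differed between their founder cells. Reads on genes numbered 18413284 to 27816723 in a clone and 17969149 to 29080007 in a population. At this depth 3 reads, the limit that a count of 0 allows, correspond to 0.105 to 0.171 counts per 1000000 reads on genes (CPM). Such limits cover counting error only.

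Reads on Nelfb, which include those of the introduced cDNA, ran against the label in 2 clones. The clones labelled WT had 200, 2637 and 306 Nelfb reads, whereas the other 12 clones had 1606 to 6167. WT clone 1 and WT clone 3, as labelled, thus stood near the EV populations after Ad-Cre, which had 177 and 116 Nelfb reads against 938 and 811 after Ad-GFP. Below, Hox gene calls that rest on the WT clones are given with and without both in the main edgeR fit. So are calls of other listed genes between 2 groups, but not those among all clone groups. MT486 clones 1 and 2 were more alike than any other pair of one group, with a chi-square per gene of 5.06 against 32.4 for the next pair. They still differed by more than the sampling noise and were kept as 2 samples.

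Fibroblast markers were read in every library, though not each of them. The 12 genes summed to 7901 to 26961 CPM in the clones and 22098 to 50584 CPM in the populations, and Fn1, the fibronectin gene, had the highest median, at 4631 and 13357 CPM. In the 3 MT486 clones Col1a1 was above Fn1. Thy1 and Lum were under 1 CPM in all clones, and Thy1 also in all populations. Dcn, the decorin gene, was at 0.494 CPM and Pdgfra at 5.48 CPM in Δ-C60 clone 3, and Dcn at 2.37 CPM in Δ-C60 clone 1, against up to 673 and 989 CPM in other clones. Epithelial, endothelial, blood and pluripotent marker lists summed to at most 10.0 CPM in any library, and Pou5f1, Krt14 and Hba-a1 had no read in any population. The skeletal muscle list reached 13.2 CPM in MT194 clone 1, of which the muscle regulator Myod1 gave 13.1 CPM. The chondrocyte list, in which Col2a1 had the highest median in the clones, summed to 190 to 1929 CPM in the clones and 41.8 to 85.6 CPM in the populations. The neural list, led by the intermediate filament gene Nes, summed to 188 to 432 CPM in the clones and 46.6 to 158 CPM in the populations.

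Hox reads came almost wholly from HoxA and HoxB. Over the 35 libraries HoxA genes had 87764 reads, HoxB genes 68919, HoxC genes 93 and HoxD genes 10. Hoxa2 to Hoxa5 and Hoxb2 to Hoxb4 were at 1 CPM or more in all 35 libraries. Hoxb1, the most anterior gene of HoxB and a regulator of hindbrain segments, had no read in the clones and 1 read over the 20 populations. By contrast, 18 members never exceeded 3 reads in a library, among them all 9 Hoxd genes. Of the 18, 5 had no read at all. In bulk RNA, fewer cells that express a gene and less RNA per cell cannot be told apart.

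Levels of different genes were compared per kilobase of exon (RPKM, from CPM and GENCODE exon lengths). In HoxA the highest median RPKM was that of Hoxa5, a regulator of lung and shoulder development, at 17.2 in the clones (range 7.20 to 25.8) and 18.3 in the populations (12.8 to 20.7). Hoxa2, which patterns the second branchial arch, had medians of 11.1 RPKM in the clones and 12.3 RPKM in the populations, and Hoxa3, needed for thymus and parathyroid, 10.8 RPKM and 11.3 RPKM. In HoxB the order of medians was Hoxb2, Hoxb3 and Hoxb4, all with roles in the hindbrain or neck region. Their medians were 14.6, 7.14 and 5.16 RPKM in the clones and 11.7, 9.66 and 5.46 RPKM in the populations. The RPKM ranges of Hoxa2 (4.47 to 15.1) and Hoxa3 (3.74 to 15.8) overlapped in the clones, and their order is not fixed by these libraries. Those of Hoxb3 (6.0 to 11.6) and Hoxb4 (3.58 to 6.45) overlapped in the clones but not in the populations. Within every clone, however, Hoxb3 was above Hoxb4. In the populations Hoxb2 (7.84 to 14.1) and Hoxb3 (7.76 to 12.1) overlapped, and their order is not fixed either.

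**Figure D1:**
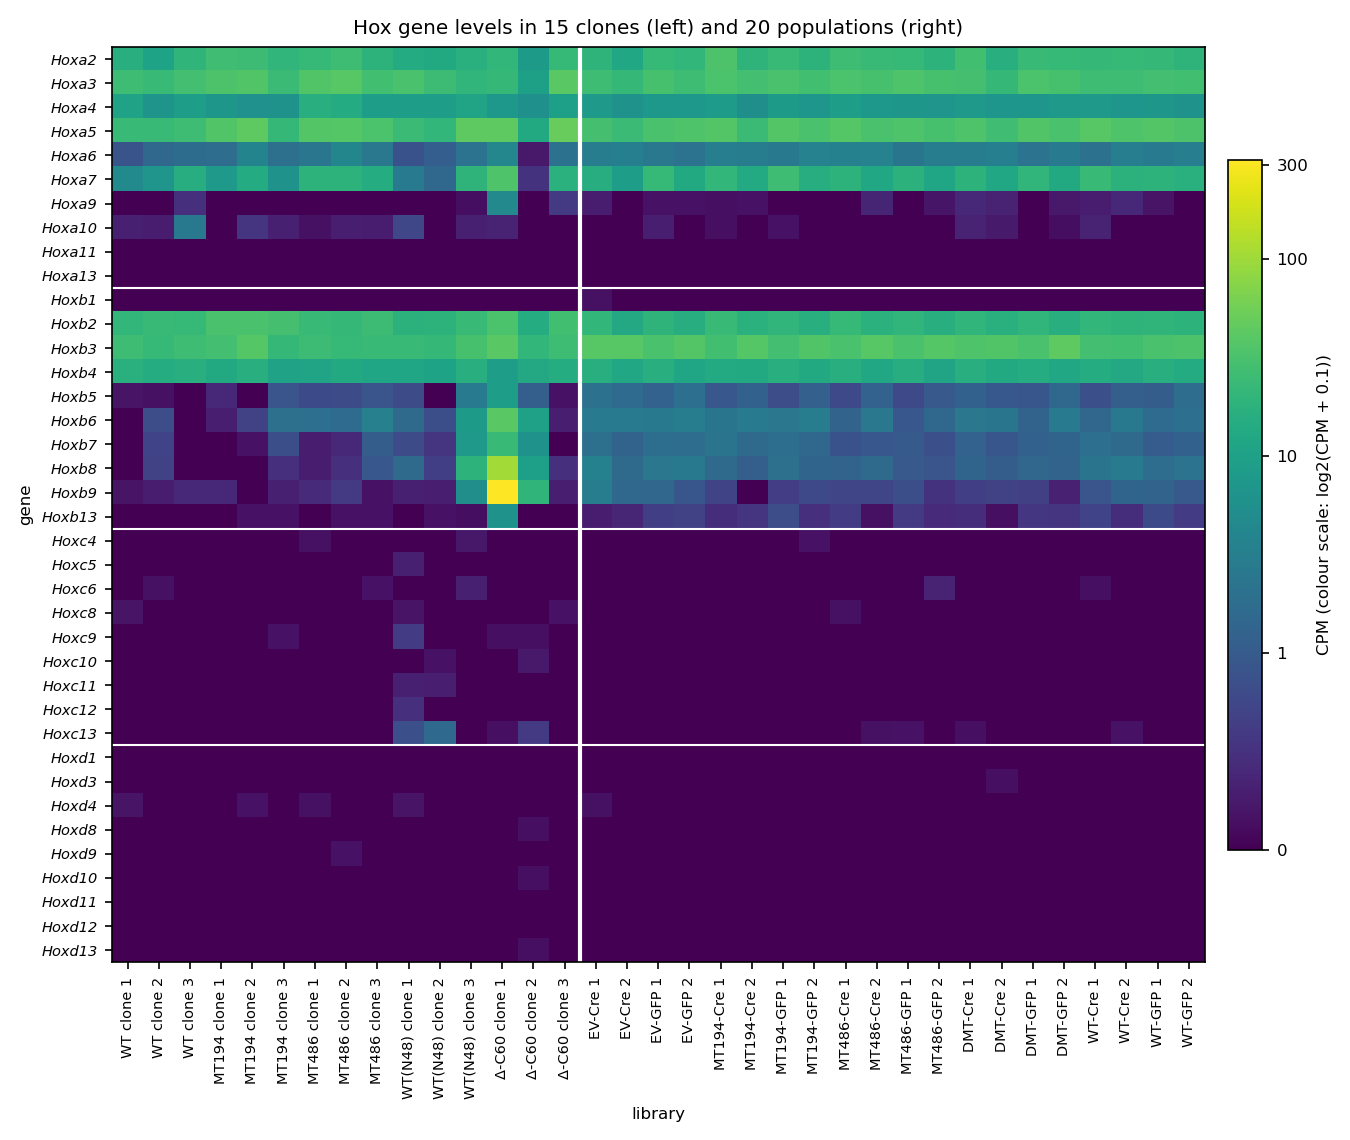
Level of Hox genes (rows, in cluster order; colour, CPM on a log scale) in each of the 15 clones and 20 populations (columns). Hoxa2 to Hoxa5 and Hoxb2 to Hoxb4 are filled in all libraries, and Hoxb1 is nearly blank, as are HoxC and HoxD. Among the clones, Hoxb5 to Hoxb9 are each highest in the same 3.

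The posterior genes of HoxA formed the edge of this pattern. Hoxa7 ranged from 0.225 to 34.4 CPM over the clones (median 14.3) and from 9.13 to 25.9 CPM over the populations (median 17.1). Its lowest clones were Δ-C60 clone 2, at 0.225 CPM, and WT(N48) clones 2 and 1, at 1.45 and 2.69 CPM. Δ-C60 clone 1 was the highest, so the group with the highest clone also held the lowest. Hoxa6, its neighbour, ranged from 0.0749 CPM, again in Δ-C60 clone 2, to 4.09 CPM, again in Δ-C60 clone 1. Beyond Hoxa7 the cluster was nearly silent, with single exceptions: Hoxa9 reached 110 reads (4.41 CPM) in Δ-C60 clone 1 and Hoxa10 50 reads (2.54 CPM) in WT clone 3, while in the populations neither exceeded 4 reads. In HoxC, Hoxc13, best known from hair and nail, had 12 and 30 reads (0.609 and 1.5 CPM) in WT(N48) clones 1 and 2 and 8 reads (0.300 CPM) in Δ-C60 clone 2, and at most 1 read in any population.

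HoxB held the widest differences between clones. Hoxb9, which shapes ribs and thoracic vertebrae, stood at 312, 19.8 and 0.0987 CPM in the Δ-C60 clones and at 0.101, 0.0999 and 5.33 CPM in the WT(N48) clones. In the other clones it was close to or under the limit of 3 reads: 0.0515, 0.0830 and 0.152 CPM in WT, 0.147, 0 and 0.10 CPM in MT194, and 0.174, 0.296 and 0.0460 CPM in MT486. Only Δ-C60 clones 1 and 2 and WT(N48) clone 3 were high, and each of their groups also held clones at the level of the rest.

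Hoxb8, known for its use in keeping blood progenitors immature in culture, showed the same 3 clones on top. It stood at 105, 9.40 and 0.197 CPM in the Δ-C60 clones and 1.52, 0.350 and 18.4 CPM in the WT(N48) clones. Across WT, MT194 and MT486 it did not exceed 0.783 CPM. In reads, Hoxb8 had 2618, 251 and 4 in the Δ-C60 clones, and Hoxb9 had 7766, 528 and 2.

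Hoxb7, Hoxb6 and Hoxb5, trunk genes that follow Hoxb8 towards the anterior end, had the same 3 clones on top, though not in one order. In Δ-C60 clones 1 and 2 and WT(N48) clone 3, Hoxb7 was at 24.0, 5.99 and 7.43 CPM, against at most 0.967 CPM in the other 12 clones. Hoxb6 was at 40.2, 10.1 and 8.02 CPM, against at most 3.27 CPM, and Hoxb5 at 9.19, 1.05 and 2.56 CPM, against at most 0.751 CPM. For each of Hoxb5 to Hoxb9, these 3 clones were above all 12 others. Hoxb13, a hindgut and prostate gene that lies 74.0 kb from Hoxb9, followed in 1 of them only: it had 6.26 CPM in Δ-C60 clone 1 and at most 0.050 CPM in every other clone.

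Hoxb4, the next gene towards the anterior end, did not share it. Its level was 9.19, 13.1 and 14.8 CPM in the Δ-C60 clones, 11.3, 10.6 and 15.7 CPM in WT(N48), 16.5, 14.5 and 16.0 CPM in WT, 13.5, 16.2 and 10.3 CPM in MT194 and 10.9, 13.3 and 11.4 CPM in MT486. The clone with the most Hoxb9 thus had the least Hoxb4. On the chromosome Hoxb5 and Hoxb4 are 12.1 kb apart, the widest gap between neighbours of Hoxb9 to Hoxb2. Hoxb5 and Hoxb6 overlap the noncoding gene Hoxb5os, and Hoxb2 and Hoxb3 overlap Hoxb3os. Whether the counting used strand was not given in the sources used here, so reads of such partners may have been mixed or set aside as ambiguous.

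**Figure D2:**
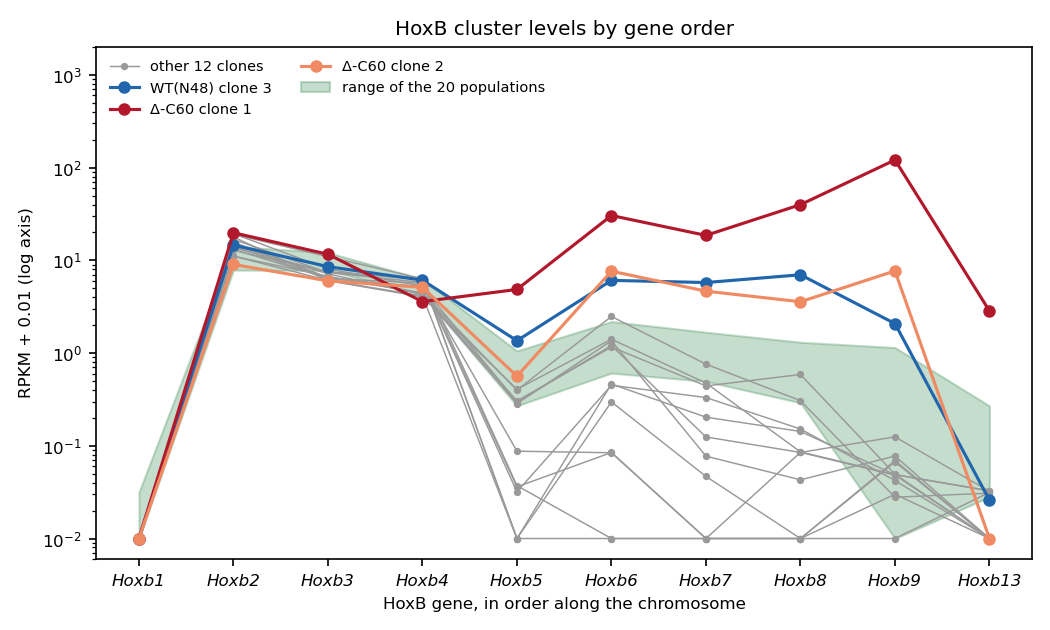
RPKM plus 0.01 on a log axis (vertical) of the HoxB genes in chromosomal order (horizontal axis), 1 line per clone, with the range of the 20 populations as a band. Lines of all 15 clones run together from Hoxb2 to Hoxb4 and part from Hoxb5 on. At Hoxb5 to Hoxb9, Δ-C60 clones 1 and 2 and WT(N48) clone 3 lie above the others.

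Summed as blocks, the same division appeared. Hoxb2 to Hoxb4 together ranged from 48.9 to 85.8 CPM over the clones, a ratio of 1.75, whereas Hoxb5 to Hoxb9 ranged from 0.103 to 490 CPM. Hoxa2 to Hoxa5 ranged from 36.8 to 121 CPM, a ratio of 3.30, and Hoxa6 with Hoxa7 from 0.300 to 38.5 CPM. Hoxb5 to Hoxb9 gave 67.6% of the summed Hox CPM in Δ-C60 clone 1, 33.9% in Δ-C60 clone 2 and 18.3% in WT(N48) clone 3, but 0.0677% to 3.27% in the other 12 clones. Per kilobase, Hoxb9 in Δ-C60 clone 1 had 121 RPKM, above Hoxa5 in the same clone at 22.7 RPKM. All 39 genes together summed to 132 to 725 CPM over the clones.

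**Figure D3:**
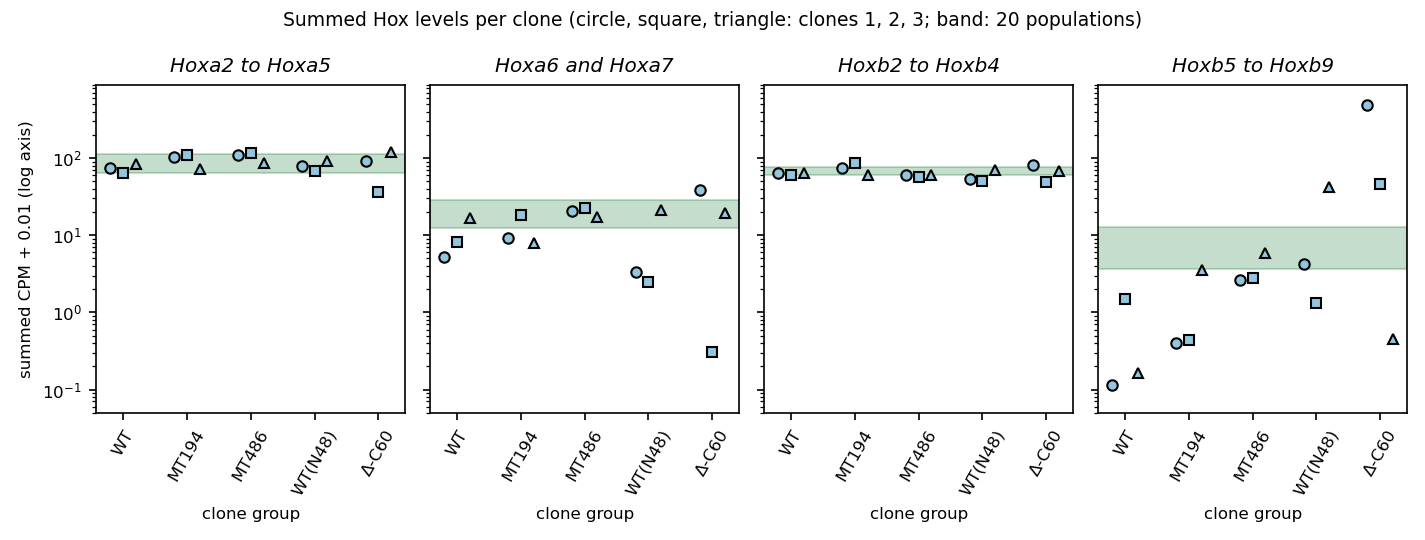
Summed CPM on a log scale (vertical axis) of 4 blocks of neighbouring Hox genes, 1 point per clone, by clone group (horizontal axis), with the range of the 20 populations as a band. The Hoxb2 to Hoxb4 sums lie within 48.9 to 85.8 CPM, whereas the Hoxb5 to Hoxb9 sums run from 0.103 to 490 CPM.

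Chondrocyte markers, the list of another cell type with the widest range of CPM, did not share the order of the Hoxb5 to Hoxb9 sum. Their sum was 950, 452 and 521 CPM in Δ-C60 clones 1 and 2 and WT(N48) clone 3, and it was highest, at 1929 CPM, in WT(N48) clone 1, where Hoxb5 to Hoxb9 summed to 4.26 CPM. The part of these markers in the differences between clones was not tested.

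The standard deviation of log2 CPM over the 15 clones put the posterior genes among the most variable of the 13223 genes tested, whose median was 0.417. Hoxb9 had 3.30 (rank 23), Hoxb8 3.10 (rank 42), Hoxb7 2.57 (rank 123), Hoxb6 2.55 (rank 124), Hoxb5 1.98 (rank 376) and Hoxa7 1.76 (rank 554). In contrast Hoxb2 to Hoxb4 had 0.270 to 0.328, below that median, and Hoxa2 to Hoxa5 0.439 to 0.516, close to it. Hoxb9 had at most 6 reads outside the 3 high clones, and it passed the filter on low counts through them, so its rank is a description only. Over the 20 populations Hoxb9 again varied most among the members, with 1.11 against a median of 0.304 for all genes tested.

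**Figure D4:**
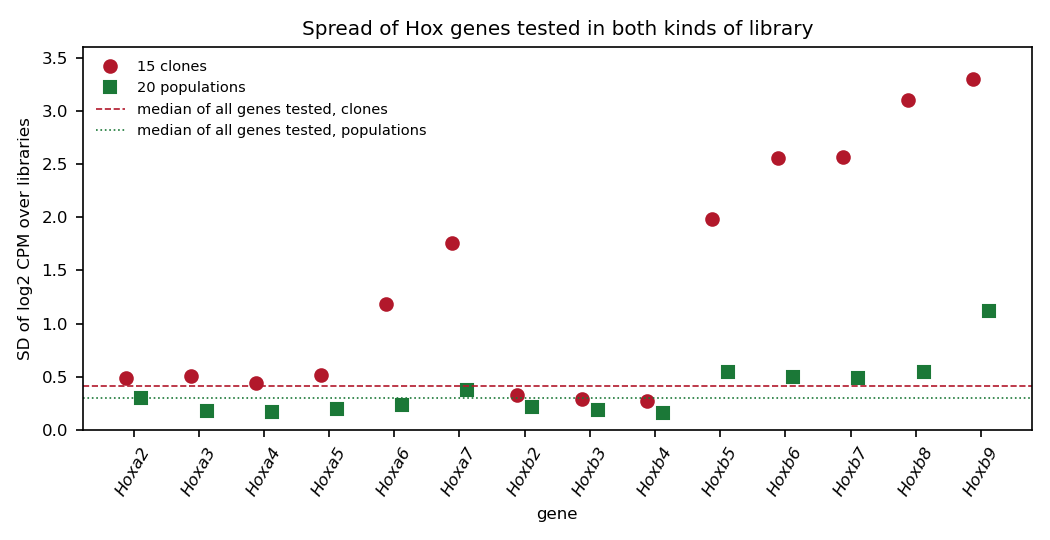
Standard deviation of log2 CPM of tested Hox genes over the 15 clones (circles) and the 20 populations (squares), with the median of all genes tested in each as a line. Hoxb5 to Hoxb9 and Hoxa7 lie far above the line of the clones, and Hoxb2 to Hoxb4 lie below it.

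Outside the Hox family, the genes whose log2 CPM over the 15 clones was most like that of Hoxb9 were Odf2l (Pearson's r = 0.855), Eif2a (0.849), Tmem79 (0.847), Pmvk (0.847) and Gpsm2 (0.845). For Hoxb8 they were Gpsm2 (r = 0.898), Eif2a (0.895), Prss35 (0.887), Pmvk (0.882) and Arhgap28 (0.874). These coefficients describe 15 libraries in which 3 clones carry most of the range, and the range of levels differed between the genes. The highest clone was 1.46 times the lowest for Odf2l and 2.48 times for Gpsm2, but 7.47 times for Arhgap28 (21.9 to 163 CPM) and 45.8 times for Prss35 (0.507 to 23.2 CPM).

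Sequences upstream of 4 start sites are shown. They are of a less and a more variable gene over the clones, Hoxb4 and Hoxb8 in HoxB and Hoxa5 and Hoxa7 in HoxA. Each gives the 250 bases before the start site (RefSeq, GRCm38.p6), read 5′ to 3′ on the strand of the gene, at chr11:96318017-96318266 plus strand for Hoxb4, chr11:96281655-96281904 plus strand for Hoxb8, chr6:52204588-52204837 minus strand for Hoxa5 and chr6:52218574-52218823 minus strand for Hoxa7. Capitals mark matches, on either strand, to the letters TGATTNAT (joint PBX and HOX sites), to those of the CCAAT box, to TATAAA (the TATA box) or to GGGCGG (the GC box).
Hoxb4: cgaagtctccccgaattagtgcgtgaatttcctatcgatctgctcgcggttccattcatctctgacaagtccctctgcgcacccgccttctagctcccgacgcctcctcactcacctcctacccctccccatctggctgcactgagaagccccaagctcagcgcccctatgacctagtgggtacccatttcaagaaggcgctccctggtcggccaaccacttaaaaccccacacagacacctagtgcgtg
Hoxb8: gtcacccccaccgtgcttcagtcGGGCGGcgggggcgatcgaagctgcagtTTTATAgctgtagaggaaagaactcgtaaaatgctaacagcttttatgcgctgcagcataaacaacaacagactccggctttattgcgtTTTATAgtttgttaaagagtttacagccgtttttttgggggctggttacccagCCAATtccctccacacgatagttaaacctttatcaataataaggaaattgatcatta
Hoxa5: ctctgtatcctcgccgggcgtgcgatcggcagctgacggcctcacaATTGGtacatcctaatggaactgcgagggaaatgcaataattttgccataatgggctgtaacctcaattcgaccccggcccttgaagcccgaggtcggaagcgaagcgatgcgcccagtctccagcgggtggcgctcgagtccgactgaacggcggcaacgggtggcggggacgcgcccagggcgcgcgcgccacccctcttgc
Hoxa7: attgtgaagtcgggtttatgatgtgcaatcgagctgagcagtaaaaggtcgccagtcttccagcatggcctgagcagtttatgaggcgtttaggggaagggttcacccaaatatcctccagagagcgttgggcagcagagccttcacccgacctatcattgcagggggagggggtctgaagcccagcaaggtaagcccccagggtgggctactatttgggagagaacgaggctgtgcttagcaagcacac

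The Hoxb8 stretch held GGGCGG at -227, TTTATA, the reverse complement of TATAAA, at -199 and -110, and CCAAT at -57, counted from the start site. The Hoxa5 stretch held ATTGG, the reverse complement of CCAAT, at -204, and the other stretches held none of the 4 motifs. Of 32817 mouse promoter stretches of this length, 2.83% held the joint PBX and HOX letters, 33.8% the CCAAT box, 12.4% the TATA box and 32.7% the GC box, on either strand and with overlap between motifs allowed. CpG pairs numbered 14 in Hoxb4, 12 in Hoxb8, 28 in Hoxa5 and 7 in Hoxa7, against a median of 6 over all stretches. These matches describe letters and not binding. In all, 22 of the 39 members had an entry in this table.

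Hox levels were compared between clone groups with the quasi-likelihood test of edgeR, fitted to all genes, and Benjamini-Hochberg adjustment. This asked whether the introduced NELFB mattered, except that WT(N48) and WT also differed in vector (pBabe and pLenti). All 3 clones high in Hoxb5 to Hoxb9 were in the pBabe groups, and the part of the vector was not tested. Calls needed an adjusted p under 0.05 together with a fold change over 2 in either direction, and 15 members, Hoxb2 to Hoxb9 and genes of HoxA up to Hoxa7, passed the filter on low counts. No member was called in any of the 5 comparisons of 2 clone groups. Of all genes tested, 0% were called in Δ-C60 against WT(N48), 1.47% in MT194 against WT, 0% in MT486 against WT, 0.28% in MT486 against MT194 and 1.47% in WT(N48) against WT. At an unadjusted p under 0.05 the members numbered 1, 0, 0, 1 and 3 in the same order, against 11.6%, 21.1%, 8.89%, 18.7% and 21% of all genes. DESeq2 called 1 member in these comparisons, Hoxa4 in MT486 against MT194, where it called 2.07% of all genes. Without those 2 WT clones that were low in Nelfb, the count stayed at 0 in the 3 comparisons with WT, and the share of all genes called was 0.00714% for MT194, 0.00714% for MT486 and 0.0143% for WT(N48). Members at an unadjusted p under 0.05 then numbered 1, 1 and 0 of 18 tested, against 11.6%, 5.55% and 8.08% of all genes. In that fit the WT group is 1 clone, which is assumed to vary like the other groups.

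The intervals show how wide a difference these 3 clones a group allow. Hoxb9 in Δ-C60 against WT(N48) had a log2 fold change of 5.85 ± 1.86 (SE, n = 3 clones each), with an unadjusted 95% interval of 1.82 to 9.89 and an adjusted p of 0.279 by the quasi-likelihood test of edgeR with Benjamini-Hochberg adjustment. The group means were 110 ± 174 and 1.84 ± 3.02 CPM (SD), and the groups overlapped. Hoxb9 passed the filter on low counts through its 3 high clones, all in these 2 groups. Its fold change and interval are thus a description only and no support for a difference between the groups. For Hoxb8 in WT(N48) against WT the log2 fold change was 5.59 ± 2.11, with an adjusted p of 0.156 in the same test. Without the WT clones low in Nelfb it was 4.16 ± 3.14. Hoxb8 was at 1.52, 0.350 and 18.4 CPM in the WT(N48) clones and at 0, 0.373 and 0 CPM in the WT clones. Both fold changes thus rest largely on WT(N48) clone 3 and are a description only. Hoxa4, another anterior gene of HoxA, gave the smallest adjusted p of any member in a comparison of 2 groups, 0.0966, in MT486 against MT194, at a log2 fold change of 1.03 ± 0.28. Its levels were 15.8, 14.1 and 9.11 CPM in MT486 and 7.10, 5.79 and 6.16 CPM in MT194, with no overlap. The 15.8 and 14.1 CPM were those of MT486 clones 1 and 2, described above as the pair most alike.

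A test of any difference among the 5 clone groups, with no fold threshold, called 2 of the 15 members, against 11.6% of all genes tested. They were Hoxb9, at an adjusted p of 0.0130, and Hoxb8, at 0.0299, by the quasi-likelihood test of edgeR with Benjamini-Hochberg adjustment. The share of members lay near that of all genes. Hoxb9 passed the filter on low counts through the 3 clones where it was high, and Hoxb8 through them and 2 others, WT(N48) clone 1 with 30 reads and MT486 clone 3 with 17. Both calls are thus a description of those clones and no support for a difference between the groups. With any 1 of the 15 clones left out the adjusted p of Hoxb9 in edgeR was 0.00425 to 0.0462. Hoxb8 lost its call in 8 of 15 cases: without WT clone 1, 2 or 3, MT194 clone 1 or 3, MT486 clone 1 or 2, or Δ-C60 clone 1, at adjusted p values of 0.0533 to 0.0715. Without both WT clones that were low in Nelfb, neither was called (0.0682 for Hoxb9, 0.116 for Hoxb8), and the share of all genes called was 1.27%.

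In the populations, Ad-Cre against Ad-GFP addressed whether loss of the floxed Nelfb allele shifts the Hox pattern within 7 days, with and without a rescuing NELFB. Nelfb itself fell in EV, by 2.67 on the log2 scale (adjusted p = 2.53e-05, quasi-likelihood test of edgeR with Benjamini-Hochberg adjustment), from 938 and 811 to 177 and 116 reads. In DMT it rose by 1.48 (adjusted p = 0.000555 in the same edgeR test), from 1414 and 1712 to 4412 and 5227 reads, which include the introduced cDNA. Of the 39 members, 16 passed the filter, the 15 above and Hoxb13. None was called under any of the 5 constructs, while of all genes tested 6.52% were called in EV, 0.0217% in WT, 2.48% in MT194, 1.46% in MT486 and 5.31% in DMT. At an unadjusted p under 0.05, in this edgeR fit that leaves the replicate number out, there was 1 member in WT, Hoxb7, and 0 in the other 4. DESeq2 called 0 in all 5. All genes at that unadjusted p made up 26.5% in EV, 6.22% in WT, 16.4% in MT194, 14.5% in MT486 and 24.9% in DMT, and DESeq2 called 5.27%, 0.134%, 2.44%, 1.84% and 4.49% of all genes. With the replicate number as a block, which pairs the experiments, 9.74% of all genes were called in EV, 0.869% in WT, 5.39% in MT194, 4.24% in MT486 and 8.8% in DMT, and again 0 members in each. Some members missed the call in this blocked edgeR fit through the fold threshold alone. They were Hoxa7, Hoxa3 and Hoxa5 in EV, at adjusted p values of 0.00419, 0.0399 and 0.0430, and Hoxa3 in DMT, at 0.0225. The share of all genes at an adjusted p under 0.05 alone in that fit is not given here. A test of whether the Cre effect differed between constructs called 0.0507% of all genes and 0 members, with none at an unadjusted p under 0.05 and none by DESeq2. With the replicate block this test called 8.73% of all genes and again 0 members.

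The change of the anterior genes after Ad-Cre can be bounded, but the bounds do not show it to be 0. Hoxa3 and Hoxa5 in EV and Hoxa3 in DMT were at an adjusted p under 0.05 in the blocked edgeR fit, as given above. In EV the median log2 fold change over the 16 members was -0.00, with 8 above 0 and 8 below. For Hoxa2 to Hoxa5 and Hoxb2 to Hoxb4 the bound of any unadjusted 95% interval furthest from 0 was 1.09 on the log2 scale in EV, 0.74 in WT, 0.97 in MT194, 0.91 in MT486 and 0.69 in DMT. With the replicate block these bounds were 0.87, 0.51, 0.71, 0.68 and 0.50. The largest estimates belonged to posterior genes of few reads, such as Hoxb13 in EV at -1.62 and Hoxb9 in EV at 1.03, neither of them called.

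**Figure D5:**
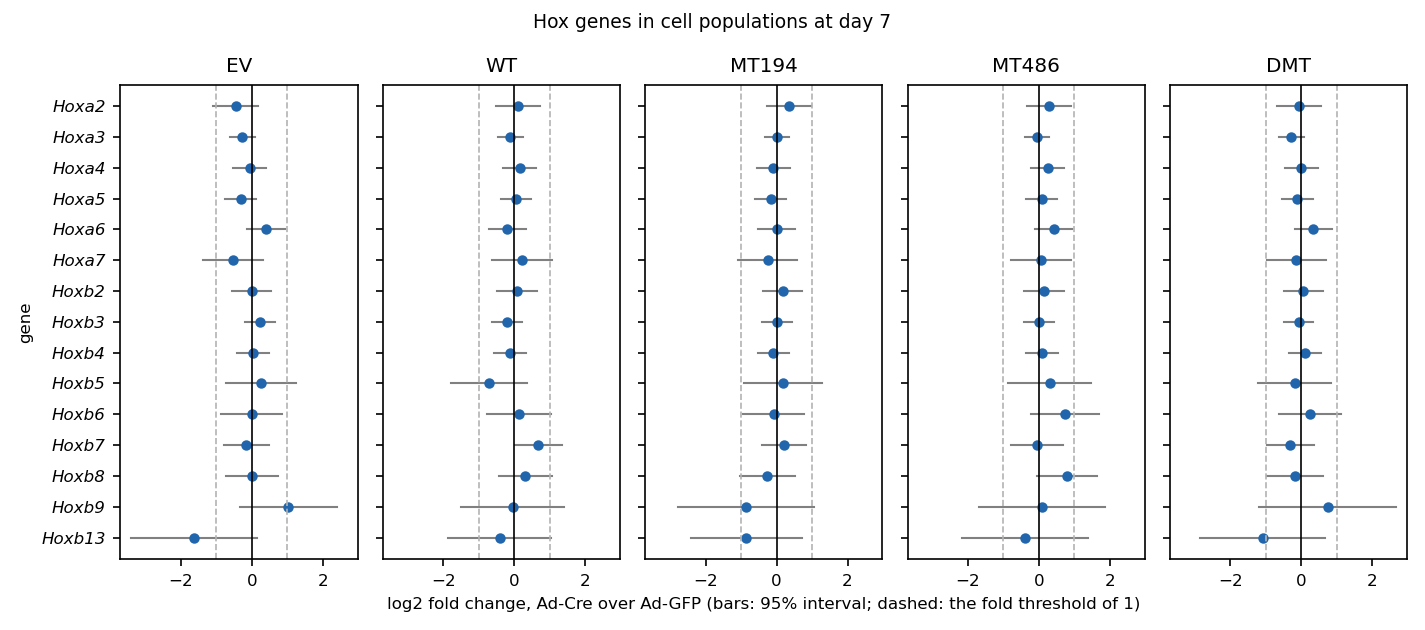
Log2 fold change of Ad-Cre against Ad-GFP (horizontal axis) for 15 tested Hox genes (vertical axis) under each of the 5 constructs, with unadjusted 95% intervals as bars, from the fit without the replicate block. The intervals of Hoxa2 to Hoxa5 and Hoxb2 to Hoxb4 reach at most 1.09 from 0, and none of the genes shown was called.

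Over the 10 population groups together, a test of any difference called 1 of the 16 members, against 13.3% of all genes tested. It was Hoxb7, at an adjusted p of 0.0408 by the quasi-likelihood test of edgeR with Benjamini-Hochberg adjustment. Hoxb9 and Hoxb8 missed the threshold at 0.0532 and 0.0608. With the replicate number as a block the count was 8 of the 16, against 57.5% of all genes, among them Hoxa3, Hoxa7 and Hoxb5 to Hoxb9, with Hoxb7 at an adjusted p of 0.00381 in the blocked edgeR fit. Without the block, the call of Hoxb7 was kept without EV-Cre replicate 2, MT194-Cre replicate 2 or DMT-Cre replicate 1, and it was lost without any 1 of the other 17 libraries, at adjusted p values of 0.0510 to 0.104.

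By construct, the lowest levels of Hoxb7 were in MT486. Its levels were 1.85 and 1.22 CPM after Ad-Cre and 1.72 and 1.71 CPM after Ad-GFP in EV, 1.78 and 1.53 against 0.932 and 1.12 CPM in WT, and 2.16 and 1.54 against 1.77 and 1.44 CPM in MT194. In MT486 they were 0.671 and 0.798 against 0.889 and 0.626 CPM, and in DMT 1.18 and 0.757 against 1.14 and 1.26 CPM. All 4 MT486 libraries were below all 12 of EV, WT and MT194 and overlapped with DMT, which in turn overlapped with WT. Hoxb9 ranged from 0.780 to 2.93 CPM in EV and 0.745 to 1.24 CPM in WT, and from 0 to 0.593 CPM over MT194, MT486 and DMT, with no overlap between the first 2 constructs and the other 3. In reads it had 16 to 65 in EV and WT and 0 to 12 in the other 3. These groupings of constructs were made after the values were seen, and the share of all genes divided in the same way is not given here. Hoxb8 ranged from 1.51 to 3.42 CPM in EV, 1.71 to 2.58 in WT, 1.06 to 1.86 in MT194, 0.740 to 1.55 in MT486 and 0.996 to 1.35 in DMT. Whether the libraries of a construct came from more than 1 transduction was not given in the sources used here, so a construct and the culture that carried it cannot be told apart.

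The replicate number also divided the populations. This term, tested in the blocked edgeR fit at an adjusted p under 0.05 alone, called 71.5% of all genes and 11 of the 16 members, 8 of them higher in replicate 1 and 3 higher in replicate 2. Hoxa7 had a mean of 20.1 CPM in replicate 1 and 13.5 CPM in replicate 2 and was higher in replicate 1 in 10 of 10 groups. Its log2 difference was -0.58 (adjusted p = 1.27e-07, quasi-likelihood test of edgeR with Benjamini-Hochberg adjustment). None of the 11 passed a 2-fold difference, and of all 9867 genes called 151 did.

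Populations and clones were normalized apart, so their levels are set side by side without a test. The Hoxb5 to Hoxb9 sum was 3.61 to 12.9 CPM in the populations (median 6.60), against a median of 2.65 CPM in the clones. Hoxb5 to Hoxb8 were detected in all 20 populations, at medians of 1.07, 2.38, 1.24 and 1.51 CPM, and Hoxb9 at a median of 0.472 CPM. Of the 15 clones, 3 lay above the highest population for this sum and 10 below the lowest.

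The noncoding genes of the clusters followed their neighbours in part. Of 17 in the files, 4 were tested in the clones and 5 in the populations. Mira, at the end of Hoxa7, had the highest median in the clones. It stood at 0.150 CPM in Δ-C60 clone 2 and 42.2 CPM in Δ-C60 clone 1, the clones with the least and the most Hoxa7. Hotair, of HoxC, had no read in any library. Hoxaas2, which overlaps Hoxa3, was the single one called in a comparison of 2 groups: it stood at 11.5, 13.3 and 14.1 CPM in MT194 clones and 5.10, 2.82 and 5.68 CPM in WT clones, with an adjusted p of 0.0274 by the quasi-likelihood test of edgeR with Benjamini-Hochberg adjustment at a log2 fold change of 1.52. Without the WT clones low in Nelfb the log2 fold change was 2.19 and the adjusted p 0.214.

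TALE homeobox genes, some of whose products bind DNA together with Hox proteins, ranged widely in level. Of the 11 listed, Tgif1 stood at 57.8 to 136 CPM and Meis2 at 32.9 to 128 CPM in the clones, while Pbx4 was at 1.01 to 4.65 CPM. Pknox2 alone was called in a comparison of 2 groups, lower after Ad-Cre in EV (log2 fold change -1.49, adjusted p = 0.00189, quasi-likelihood test of edgeR with Benjamini-Hochberg adjustment). Of 16 genes listed as caudal and axial regulators upstream of Hox genes, 5 were tested in the clones and 6 in the populations. None of these was called in a comparison of 2 groups. Of all genes tested, 0% to 1.47% were called between 2 clone groups and 0.0217% to 6.52% between Ad-Cre and Ad-GFP. With so few genes listed, a count of 0 is thus no result about the list. Cdx1, Cdx2, Cdx4 and T were under 1 CPM in every library, and Rarg and Rara, the retinoic acid receptors, led the list, Rarg at 149 to 408 CPM in the clones.

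Genes that mark other positions were read in the same libraries. Of 28 genes of limb and lateral plate, 19 were tested in the clones and 17 in the populations. Prrx1, a limb bud gene, had the highest median in the clones (range 90.9 to 769 CPM), while Tbx5, Hand1 and Hand2 had no read in any library. Tbx2 was lower after Ad-Cre in EV, MT194, MT486 and DMT, by log2 fold changes of -1.59, -1.90, -1.31 and -2.74, and Dlx5 and Prrx2 were lower in EV, at -1.62 and -1.22. Of 21 head genes, 9 were tested in each. Twist1, a gene of the cranial neural crest, stood at 35.7 to 89.7 CPM in the clones, and Otx1 was lower after Ad-Cre in DMT, at -1.24.

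Of the chromatin complexes that hold Hox genes silent or active, all 31 Polycomb genes were tested. Rbbp7 had the highest median of these in the clones (range 229 to 449 CPM). Pcgf5, of a Polycomb repressive complex 1, was higher after Ad-Cre in EV and DMT (log2 fold changes 1.30 and 1.29), and Phf19 was lower in EV (-1.02). None of the 31 was called in a comparison of 2 clone groups, where 0% to 1.47% of all genes were called. The list of MLL/COMPASS and H3K27 demethylases has 18 genes, among them some, such as Mllt3, that belong to neither. Mllt3 was called once, at a log2 fold change of 1.23 in MT194 against WT clones. Without the WT clones low in Nelfb the log2 fold change was 1.09. In the test of any difference among clone groups, 5 of 31 Polycomb genes were called (Cbx6, Cbx7, Ezh2, Pcgf5 and Rybp), against 11.6% of all genes. The same test called 2 of 18 genes of the MLL/COMPASS list, 3 of 11 TALE genes, 3 of 19 limb genes and 1 of 4 noncoding genes. Among the population groups it called 3 of 31, 2 of 18, 2 of 11, 7 of 17 and 0 of 5 in the same order, against 13.3% of all genes. The head and caudal lists had 0 of 9 and 0 of 5 called among the clone groups and 1 of 9 and 0 of 6 among the population groups. Every list call in the test among the clone groups was made with the WT clones low in Nelfb included, and none is given without them. Of the cell type markers, Fn1 was called among the clone groups, and Acan and Col2a1 of the chondrocyte list and Tubb3 of the neural list among the population groups. Their part in the Hoxb7 call was not tested.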

How the data were processed

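Per the labels and the study's methods, the authors aligned reads to mm10 with Bowtie2, kept a mapping quality of at least 30, and deposited HTSeq read counts per gene for each of the 35 libraries. Tool versions, annotation and the strand setting of the counting were not given in the sources used here. Rows that name no gene were left out of library sizes: reads on no feature were 9.14% to 12.0% of a clone's total and 11.7% to 21.3% of a population's.

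The members and gene lists were chosen with earlier results of these data known. Clones and populations were fitted apart with edgeR 4.0.16 in R 4.3.3 (filterByExpr, TMM, robust quasi-likelihood test, Benjamini-Hochberg adjustment), on 13223 and 13805 genes, and DESeq2 1.42.0 was an alternative. Steps were tested on simulated data. CPM used TMM library sizes, RPKM GENCODE exon lengths, which approximate those the authors counted on, and log2 CPM a prior count of 2. The genes named were members called in any comparison, the 3 highest by RPKM per cluster, members at 5 CPM or more in 1 clone and 0.1 CPM or less in another, called and highest list genes (1 member and some list genes are not reported here), and the 5 genes most like Hoxb8 and Hoxb9; HoxC, Hoxa4, Hoxa6, Hoxa7, Hoxa9 and Hoxa10 values were chosen after they were seen.

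The labels call replicates biological but do not say more, so p-values measure the spread between these libraries. The study describes 2 independent population experiments, and same-numbered libraries deviated together in 45 of 45 group pairs (r 0.420 to 0.730), so the numbers pair them. The counts of calls and intervals come from the fit without that block unless the block is named. Clone replicate numbers only number the clones. Alternatives were DESeq2, its size factors, no filter, no fold threshold, only the libraries of the groups compared, the replicate block and leaving out each library.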

Additional observations from a re-analysis of the deposited data

How the results depend on the processing

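Under the alternatives 187 values kept their direction and side of the threshold and 67 did not. The count of members called among the 5 clone groups, 2 in the edgeR analysis, was 1 with no filter on low counts, 5 by DESeq2 (Hoxa4, Hoxb5, Hoxb6, Hoxb8 and Hoxb9, against 20.2% of all genes), 1 with MT486 clones 1 and 2 summed, 0 without the 2 WT clones low in Nelfb, and 1 to 3 when 1 clone was left out. The count among the 10 population groups, 1, stayed at 1 with no filter, where it was Hoxb9 in place of Hoxb7, and was 3 by DESeq2 (Hoxb7, Hoxb8 and Hoxb9, against 18.2% of all genes) and 0 to 2 when 1 library was left out. MT486 against MT194 clones gave 0 members, 1 by DESeq2 (Hoxa4, against 2.07% of all genes) and 0 to 1 when 1 clone was left out, the 1 arising without MT486 clone 3. Of all genes, 6.11% were called among the clone groups with no filter and 4.84% with the MT486 clones summed. The share there was 3.55% to 22.6% when 1 clone was left out. Among the population groups 8.44% were called with no filter and 9.20% to 12.6% when 1 library was left out. For MT486 against MT194 clones the share was 0% to 1.15% when 1 clone was left out. The causes of these changes were not tested. Summing the MT486 clones and leaving out both WT clones were chosen after seeing the data.

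With the replicate number as a block, the count among populations was 8, against 57.5% of all genes. That among clones was 0, against 4.93% of all genes (Hoxb9 at an adjusted p of 0.0546 in edgeR). In the clones the numbers did not pair the samples: 3 of 30 same-numbered pairs had a correlation of deviations over 0.1. The block changed no other count of members.

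At this depth 24 members had too few reads to be tested in the clones.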
